A study of Mus musculus with 46 samples.

Results

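The regions described here were the broad H3K4me3 domains of mouse embryonic fibroblasts (MEFs), chosen by width as every H3K4me3 peak of the day 0 library (D0) whose end minus start was 5 kb or more. They numbered 1412 of the 41015 D0 H3K4me3 peaks, or 3.44%. H3K4me3 is the trimethylation of lysine 4 of histone H3 and marks the starts of active genes, where it usually forms a short peak on both sides of the start. At a minority of genes the mark runs far into the gene body, and such broad domains are known for lying at genes tied to the identity of a cell type. H3.3 is a histone H3 variant that is placed into chromatin outside of DNA replication, at active promoters, enhancers and transcribed gene bodies.

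The study followed histone marks while fibroblasts changed into other cells. MEFs from midgestation embryos with a GFP cassette at Oct4 were infected with retroviruses for Oct4, Sox2, Klf4 and c-Myc (OSKM), harvested on day 0 (D0) and day 3 (D3), and sorted by Thy-1 on days 6 and 9 and by SSEA-1 on days 12 and 16. The fractions D6T-, D9T-, D12S+ and D16S+ were those on the way to pluripotency, and the Thy-1 positive D6T+ and D9T+ and the SSEA-1 negative D12S- and D16S- were the unsuccessful ones. Finished induced pluripotent stem cells (iPSCs) and ESD3, a line of mouse embryonic stem cells, closed the series, and in a second experiment other MEFs, freed of blood cells by sorting, were turned toward blood with Scl, Lmo2, Runx1 and Bmi1 and sampled on day 0 (MEF), on day 4 (D4) and, when fully transdifferentiated, as cKit+ and cKit- fractions. H3K4me3 was profiled in D0, D3, D6T-, D9T-, D12S+, D16S+ and iPSCs, H3K36me3, a mark of transcribed gene bodies, in the same 7 stages, and H3.3 in all 16 stages and fractions. The methods call the infection itself day 0, so whether D0 cells had met virus was not given in the sources used here. Each stage was 1 library of mixed cells, and the number of embryos behind it was not given either.

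Sequences that lay in the domains are shown first, because the named miRNAs and promoters recur below. In all, 64 annotated miRNA genes began inside 51 of the domains, and 30 of them matched a RefSeq entry (GRCm38.p6 tables), giving 50 mature sequences. The 9 shown were chosen after the values were seen, for lying in Hox clusters, in domains without a protein-coding start or for sharing a seed. Capitals mark the seed, bases 2 to 8, written 5′ to 3′.
mmu-miR-196b-5p: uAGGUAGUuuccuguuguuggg
mmu-miR-196a-5p: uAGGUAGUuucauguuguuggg
mmu-miR-132-3p: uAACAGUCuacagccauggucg
mmu-miR-212-3p: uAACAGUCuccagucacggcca
mmu-miR-125a-5p: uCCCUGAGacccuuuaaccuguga
mmu-miR-351-5p: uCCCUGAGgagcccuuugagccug
mmu-miR-199a-3p: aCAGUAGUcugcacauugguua
mmu-miR-214-3p: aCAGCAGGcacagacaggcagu
mmu-miR-21a-5p: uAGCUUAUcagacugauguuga
The first 6 of these lines form 3 pairs that each share a seed. Mir196b lay in the widest domain of all, over Hoxa7 to Hoxa11, and Mir196a-2 in the second widest, over Hoxc9 and Hoxc10. Mir132 and Mir212 sat in 1 domain of 11.7 kb at chr11:74976458-74988158, Mir125a with Mir99b in a domain of 14.4 kb at chr17:17962561-17976941, and Mir351 with Mir503 and Mir322 in a domain of 6.58 kb at chrX:50406499-50413080.

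The 200 bases before a gene start are shown for 3 domains described below, 1 that stayed broad in every library (Brd2) and 2 without an iPSC peak (Sept9 and Emp1), read from the mm9 genome (NCBIM37), 5′ to 3′ along the gene. In the first and second, capitals mark CpG, the dinucleotide that carries DNA methylation, and in the third they mark TGANTCA, the motif bound by AP-1 (FOS and JUN proteins), which reads the same on both strands.
Brd2 (chr17:34259263-34259462, minus strand): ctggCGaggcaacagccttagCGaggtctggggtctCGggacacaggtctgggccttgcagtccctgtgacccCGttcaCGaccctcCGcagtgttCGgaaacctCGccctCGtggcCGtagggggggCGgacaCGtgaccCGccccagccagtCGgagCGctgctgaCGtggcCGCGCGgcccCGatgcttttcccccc
Sept9 (chr11:117093399-117093598, plus strand): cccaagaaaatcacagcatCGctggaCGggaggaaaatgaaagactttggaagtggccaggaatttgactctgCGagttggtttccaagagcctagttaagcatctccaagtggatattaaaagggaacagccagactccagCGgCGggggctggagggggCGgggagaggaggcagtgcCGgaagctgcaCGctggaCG
Emp1 (chr6:135312749-135312948, plus strand): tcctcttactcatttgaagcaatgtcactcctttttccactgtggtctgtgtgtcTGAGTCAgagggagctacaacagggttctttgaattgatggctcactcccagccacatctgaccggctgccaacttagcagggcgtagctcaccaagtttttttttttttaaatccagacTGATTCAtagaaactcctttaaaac
The Brd2 window held 20 CpG, the Sept9 window 9 and the Emp1 window 2. By rule 5 windows were drawn, and those of Hoxa9 and Morf4l2 are not shown. Hoxa9, in the widest domain, held 3 CpG, and Morf4l2, with an iPSC peak of 5.59 kb, held 6. Neither had a match to TGANTCA. Across genes, the 200 bases before the most upstream start were taken, inside the domain or not, with exons allowed. They were taken per gene identifier, and their totals differ from the gene counts below. These windows held a median of 15 CpG over the 1584 windows of genes that started in a domain. The median was 13 over 12746 windows of genes in other D0 peaks and 2 over 8024 windows of genes in no D0 peak. Emp1 had 2 matches to TGANTCA, and at least 1 was held by 3.03% of the windows of genes in a domain, 3.23% of those in other D0 peaks, 7.34% of those in no D0 peak and 4.69% of all 22354.

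All peaks were called per library against input, so no value below has a replicate check and no p-value is given. The H3K4me3 libraries held 15.8 to 35.4 M tags (mega, as in Mb), of which 3.71% to 34.8% lay in peaks, and the lowest of both belonged to D16S+. D0 had 30.4% of its tags in peaks and iPSCs 12.7%. The 16 H3.3 libraries held 18.7 to 91.8 M tags, with 1.65% (cKit+) to 37.2% (D4) in peaks. Widths and covers moved with these shares, and the part of enrichment in each difference between libraries was not tested. In such mixtures, fewer marked cells and less mark per cell cannot be told apart. Intervals below are 95% Wilson intervals and cover counting error only.

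Because the domains were chosen by their D0 width, width in D0 is given as a description. Their median width was 6.11 kb, 651 measured 5 to 6 kb, 79 measured 10 to 15 kb and 14 were wider than 15 kb, up to 30.5 kb. They made up 14.0% of the length under D0 H3K4me3 peaks and 18.3% of the tags in them. Tag density was not higher than in the 10498 D0 peaks of 2 to under 5 kb, used below as the comparison: the median was 59.9 normalised tags per kb in the domains and 60.4 in the comparison peaks. At the limit, the 5 narrowest domains (Sfmbt2, Chd4, Tmem93 with Tax1bp3, Por, and Glyr1 with Ubn1) were 5000 to 5003 bp wide and the 5 widest peaks left out (at Ino80d, Rbm47 and Rps20, and 2 without a gene) were 4993 to 4999 bp wide, with H3.3 cover in D0 from 12.5% to 97.9% inside and from 0% to 73.8% outside.

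Broad domains lay at gene starts and ran downstream into the gene. A protein-coding start of the GENCODE vM1 annotation lay in 1319 of 1412 domains (93.4%, 92.0 to 94.6), in 82.1% of the comparison peaks and in 33.6% of all D0 peaks. Among the 1060 domains with 1 gene, the median reach was 1.41 kb upstream of the start and 4.60 kb downstream, and 953 of them (89.9%) reached farther downstream. H3K36me3 rose with distance from the start. Some D0 H3K36me3 peak lay in 656 of the 1412 domains (46.5%), in 11.3% of the comparison peaks and in 9.85% of all D0 peaks. Among the domains with 1 gene, 0.283% carried a D0 H3K36me3 peak just after the start, 18.5% at 2.6 kb and 35.6% at 5.1 kb. At 5.1 kb, D0 H3K4me3 had fallen to 39.3%, so these distances run past many domain ends. Inside these domains, D0 H3K36me3 peaks covered 4.47% of the first 2 kb downstream and 27.1% of the length beyond 2 kb. Over the whole set, H3K36me3 covered at least 50% of the length of 106 domains in D0 (7.51%), against 1.11% of the comparison peaks and 4.62% of all D0 peaks. Domains were longer than the comparison peaks by definition, so they reached farther into genes.

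**Figure D1:**
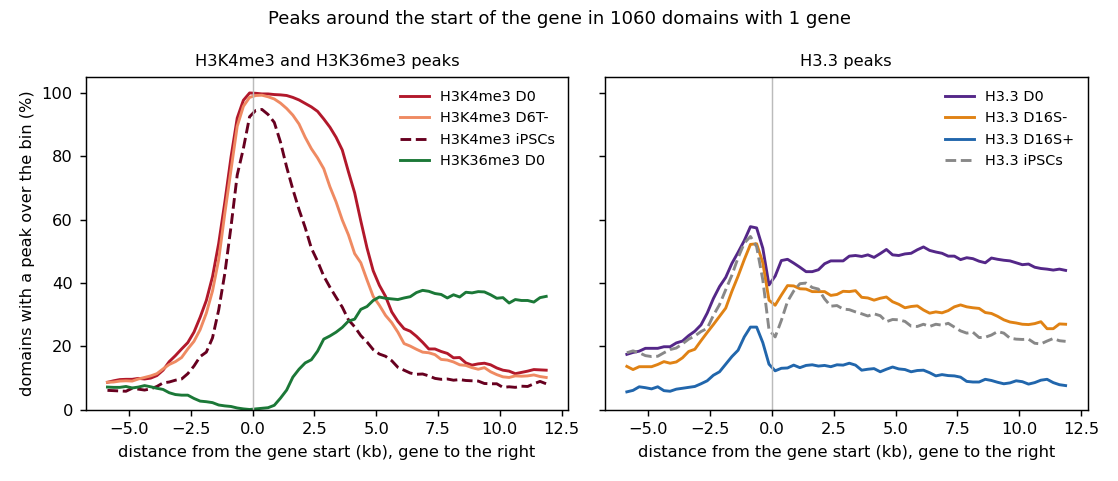
Share of the 1060 domains with 1 gene (y axis, %) that carried a peak over at least 50% of each 250 bp bin, against distance from the gene start (x axis, kb, gene to the right), for H3K4me3 and D0 H3K36me3 (left) and H3.3 (right). H3K4me3 in iPSCs kept the start (94.5% just after it) and was lower downstream (46.9% against 94.2% in D0 at 2.6 kb), and H3.3 in D0 stood at 57.8% upstream of the start, 39.4% just before it and 48.7% at 5.1 kb.

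Developmental transcription factors held 6 of the 12 widest domains. First came Hoxa7, Hoxa9, Hoxa10 and Hoxa11 in 1 domain of 30.5 kb at chr6:52169685-52200232. Hox genes encode the factors that set position along the body axis. The next was Hoxc10 with Hoxc9, 26.6 kb at chr15:102789434-102816077, and Hoxb6 with Hoxb5 measured 15.4 kb. Zfhx3 (17.8 kb), Tbx15 (17.5 kb), a T-box factor of limb and skin mesenchyme, and Ebf3 (15.9 kb) were further factors in this group. Midn with Cirbp (21.9 kb), Plec (21.8 kb), a linker of the cytoskeleton, Smad7 (15.5 kb), an inhibitor of TGF-beta signalling, and Col1a1 (15.2 kb), the main chain of type I collagen, completed the named ones. The other 2 held no protein-coding start, at chr15:85495828-85515110 (19.3 kb) and at chr6:31021958-31040641 (18.7 kb, over the start of the non-coding gene Gm13834).

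Most fibroblast markers, and no defining marker of the other cell types checked, started in a domain. Of 12 fibroblast markers, 12 started in a D0 H3K4me3 peak and 8 in a domain (Twist1, Twist2, Prrx1, Snai2, Col1a1, Col1a2, Col3a1 and Fn1). None of 8 pluripotency, 6 epithelial, 8 hematopoietic and 5 matched neural markers started in a domain, and Pou5f1, Nanog, Zfp42, Dppa5a, Tdgf1, Krt8, Ptprc, Sfpi1, Gata1 and Vav1 had no D0 peak at their starts. Of 22232 protein-coding genes, 1574 started in a domain, a background of 7.08%. Against this, the share was 75.0% of the contractile and actin genes (24 of 32), 70.0% of AP-1 and immediate early genes (21 of 30), 60.0% of fibroblast and mesenchymal transcription factors (39 of 65), 58.3% of housekeeping genes (21 of 36) and 56.4% of Hox genes (22 of 39). Senescence and p53 genes followed with 13 of 24, TGF-beta and BMP pathway genes with 18 of 37, the Hippo pathway with 11 of 27, the MAPK cascade with 17 of 42 and matrix and collagen genes with 20 of 51. Epithelial genes were lowest with 1 of 44 (2.27%, Grhl3). Neural genes had 4 of 29 (13.8%), and hematopoietic and pluripotency genes 7 of 44 each (15.9%). Of all these lists, only the epithelial share was below the background of 7.08%. The lists were written with earlier results known, so these shares are a description.

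The 93 domains without a protein-coding start were not empty of genes. In 22 of them a longer non-coding gene started, 7 held a miRNA gene, 41 lay over the body of a protein-coding gene and 32 held none of these, with some domains in more than 1 class. Malat1 (12.8 kb, chr19:5794436-5807231) and Neat1 (11.0 kb, chr19:5835646-5846663), the abundant nuclear non-coding RNAs, were among the former. Dnm3os, the antisense transcript from which miR-199a and miR-214 are made and which is known from mesenchyme, lay in a domain of 7.41 kb at chr1:164146466-164153871. Mir21 lay in one of 6.46 kb at chr11:86395482-86401947, within the gene Vmp1.

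Most domains kept H3K4me3 in every later library. Outside of D6T-, most overlapped only peaks under 5 kb. In D6T-, 478 (33.9%) were wider than in D0, but the median widest overlapping peak was 5.57 kb, against a D0 median of 6.11 kb. The matching share of all D0 peaks was not counted. D6T- held 1575 peaks of 5 kb or more in all, against 1412 in D0. A domain was counted as kept broad where it overlapped a later peak of 5 kb or more. Since the domains were chosen for D0 width, some fall below it, here and in the groups below, can be built into the choice. Its part was not tested. In D3 the median widest overlapping peak was 4.91 kb, and a median of 82.2% of the domain length was covered. D3 kept 670 domains (47.5%), D6T- 880 (62.3%), D9T- 631 (44.7%), D12S+ 281 (19.9%), D16S+ 12 (0.850%) and iPSCs 380 (26.9%, 24.7 to 29.3). In the same order, all D0 peaks gave 2.21%, 4.57%, 2.81%, 1.08%, 0.0414% and 2.14%, and the comparison peaks 1.67%, 6.49%, 3.53%, 1.10%, 0.0381% and 3.28%. The low value of D16S+ came with its short list and its low share of tags in peaks, and iPSCs, with more tags in peaks, were higher again. Loss of the whole mark was rare outside of D16S+: D3 had no peak at 0.283% of the domains, D6T- at 0.354%, D9T- at 0.283%, D12S+ at 1.35%, D16S+ at 13.4% and iPSCs at 2.62% (37 domains). All D0 peaks gave 42.4%, 38.5%, 44.2%, 54.4%, 71.1% and 53.6%, and the comparison peaks 2.78%, 2.49%, 4.01%, 7.08%, 30.5% and 7.86%. When peaks under 8-fold over input were dropped from every library, the iPSC values became 14.0% kept and 51.6% without a peak, so both rest on weak iPSC peaks.

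The widest peaks of each library were also compared, in equal number. The 1412 widest peaks of each later library, which reached down to 4.36 kb in D3, 2.00 kb in D16S+ and 4.16 kb in iPSCs, overlapped 64.6% of the domains for D3, 59.3% for D6T-, 54.4% for D9T-, 48.4% for D12S+, 29.6% for D16S+ and 40.1% for iPSCs. The same lists overlapped 3.69%, 4.14%, 3.84%, 3.55%, 3.36% and 3.57% of all D0 peaks. The share was lower in iPSCs than in D3, and D16S+, with the fewest tags in peaks, was the lowest of the 6. The part of enrichment in this measure was not tested either. Seen from the other end, 381 of the 793 iPSC peaks of 5 kb or more (48.0%) overlapped a D0 domain. The matching share of all iPSC peaks was not counted, so whether 48.0% is high cannot be told.

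**Figure D2:**
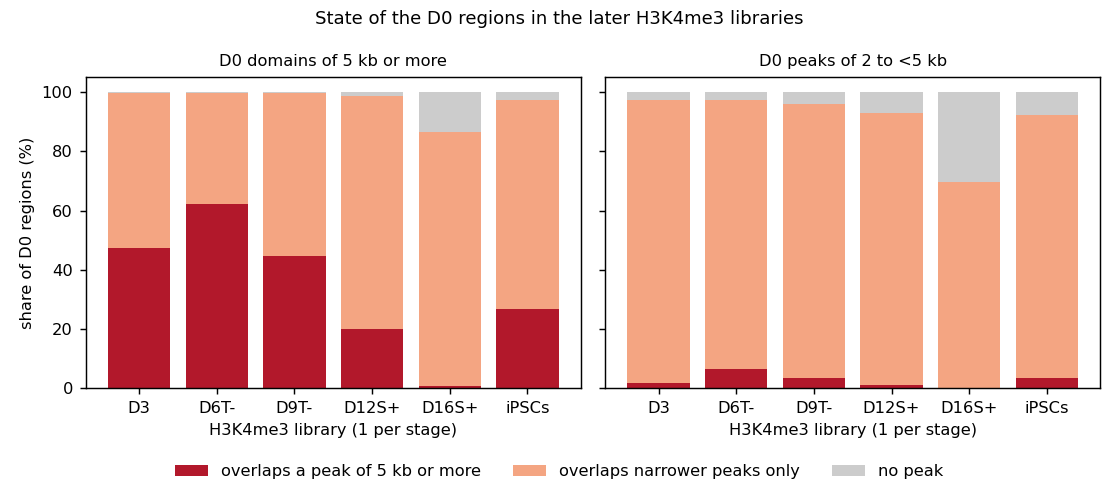
Share of the 1412 D0 domains (left) and of the 10498 D0 peaks of 2 to under 5 kb (right) that overlapped a peak of 5 kb or more, narrower peaks only, or no peak in each of 6 later H3K4me3 libraries (y axis, %). Peaks of 5 kb or more lay at 62.3% of the domains in D6T-, 0.850% in D16S+ and 26.9% in iPSCs.

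H3K4me3 was kept best in the first 2 kb after the gene start. In the domains with 1 gene, iPSC peaks covered 66.6% of the length upstream of the start, 83.9% of the first 2 kb downstream and 39.0% of the length beyond 2 kb. D6T- peaks covered 87.5%, 96.9% and 71.4% of these segments and D16S+ peaks 24.3%, 46.4% and 12.6%. In each of the 6 later libraries the first 2 kb was covered most and the part beyond it least. These segments lie at unequal distances from the start, so their order does not show from which side the domains narrowed. In the bin at 2125 bp, D0 and iPSC peaks lay at 29.2% and 16.8% of these domains upstream and at 96.7% and 57.5% downstream. At 1125 bp the values were 65.6% and 43.1% upstream and 99.4% and 84.5% downstream.

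Gene groups narrowed to different degrees and at different stages. Of the 1300 domains that were the widest for at least 1 gene, 63.4% were kept broad in D6T- and 27.9% in iPSCs, and the median iPSC peak had 0.573 of the D0 width. Matrix and collagen domains were broad in 3 of 19 in D6T- (15.8%) and 1 of 19 in iPSCs, that of Sparc. Col1a1 measured 15.2 kb in D0, 3.65 kb in D3, 3.29 kb in D6T-, 2.97 kb in D9T-, 1.94 kb in D12S+, 0.926 kb in D16S+ and 2.08 kb in iPSCs. Its width was under 4 kb in every later library. Loxl1, a collagen cross-linking enzyme, went from 11.5 kb to 4.22 kb in D3 and 1.80 kb in D6T-, and Thbs1, a matrix glycoprotein, from 8.21 kb to 5.93 kb and 3.55 kb. The laminin chain gene Lamb1 measured 11.1 kb in D0, 9.05 kb in D3 and 4.77 kb in D6T-.

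Most transcription factor and Hox domains were broad in D6T- and few or none in iPSCs, and in D3 25 of 39 and 6 of 14 were broad. Fibroblast and mesenchymal factors were broad in 31 of 39 in D6T- (79.5%) and 5 of 39 in iPSCs (12.8%), and Hox domains in 10 of 14 (71.4%) and 0 of 14, a count of 0 that allows up to 21.4%. The Hoxa domain overlapped a peak of 16.3 kb in D3, 39.2 kb in D6T-, 20.2 kb in D9T-, 7.11 kb in D12S+, 1.72 kb in D16S+ and 3.00 kb in iPSCs. The D6T- peak was wider than this D0 domain and also overlapped the separate D0 domain of Hoxa6 with Hoxa3 (6.38 kb). Tbx15 went from 17.5 kb to 8.23 kb in D3, 13.5 kb in D6T-, 7.08 kb in D9T- and 1.42 kb in iPSCs, and Ebf3 from 15.9 kb to 6.89 kb, 10.7 kb, 6.33 kb and 2.93 kb. Nr2f2, an orphan nuclear receptor of mesenchyme, measured 15.0 kb in D0, 14.5 kb in D6T- and 4.67 kb in iPSCs, and Zeb2, a repressor of Cdh1, 11.9 kb, 6.36 kb and 3.00 kb.

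The housekeeping, senescence and p53, AP-1 and immediate early, and pluripotency lists kept more of their width than all gene domains. Of all gene domains, 27.9% were kept broad, at a median width ratio of 0.573. Housekeeping domains were broad in 17 of 21 in iPSCs (81.0%), with Pkm2, a glycolytic enzyme, at 12.4 kb in D0 and 8.98 kb in iPSCs, and the elongation factor Eef2 at 9.13 kb and 7.09 kb, while the glycolytic Aldoa fell just under the limit, with 11.0 kb and 4.95 kb. Senescence and p53 genes kept 8 of 13 (61.5%). Among these were the cyclin genes Ccnd1 (10.2 to 6.23 kb) and Ccnd2 (8.90 to 7.36 kb). The cell cycle inhibitor Cdkn1a (8.34 to 7.54 kb) and the p53 antagonist Mdm2 (7.63 to 5.68 kb) were also kept. Cdkn2a (5.90 to 2.86 kb), Cdkn2b (5.43 to 1.72 kb) and Zmat3 (5.42 to 3.08 kb) were not. Phlda3 (6.61 to 4.46 kb) and Igfbp5 (5.79 to 4.99 kb) also fell under the limit. AP-1 and immediate early genes kept 11 of 21 (52.4%), among them Zfp36 (8.34 to 5.10 kb), Sgk1 (8.32 to 8.71 kb) and Zfp36l1 (8.04 to 7.63 kb). Of the FOS and JUN genes in this list, Fosl2 (9.65 to 5.86 kb) and Junb (7.08 to 5.22 kb) were kept. Jun (6.81 to 4.62 kb), Fos (5.46 to 4.36 kb), Jund (6.52 to 3.42 kb) and Fosl1 (5.97 to 1.59 kb) were not. Of the contractile and actin domains 7 of 24 were kept (29.2%), close to all gene domains, with a median width ratio of 0.514: Actn4 measured 6.37 kb in iPSCs and Tpm1 5.04 kb, while Zyx measured 2.99 kb and Cnn2 4.01 kb. All 7 pluripotency genes with a D0 domain were kept, Tbx3, Sall1, Zic2, Jarid2, Klf4, Mycn and Trim71, and the Trim71 domain of 5.19 kb overlapped an iPSC peak of 18.4 kb. Of the 4 factors supplied by virus, the cellular genes Klf4 and Myc started in a D0 domain.

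Signalling lists stood on both sides of the 27.9% of all gene domains. TGF-beta and BMP pathway domains were kept broad in 4 of 18 (22.2%). Inhba, an activin subunit, went from 12.7 kb to 1.31 kb, while Id2, a target of BMP signalling, went from 9.72 kb to 7.17 kb and Ski, a co-repressor of Smad proteins, from 9.27 kb to 4.06 kb. Hippo pathway domains were kept in 4 of 11 (36.4%): the factor Tead1 measured 10.8 kb and 9.67 kb, the target Cyr61 8.53 kb and 7.19 kb, Tead3 8.03 kb and 3.08 kb, and the receptor kinase Axl 9.82 kb and 1.73 kb. MAPK cascade domains were kept in 5 of 17 (29.4%): the phosphatase Dusp4 measured 12.5 kb and 6.20 kb, the receptor Pdgfra 11.7 kb and 2.33 kb, and the inhibitor Spred1 10.2 kb and 3.54 kb. In the hematopoietic list 1 of 7 was kept, Gata3 (8.55 to 7.89 kb), and Meis1 (12.3 to 3.62 kb), Gata2 (9.53 to 3.92 kb) and Runx1 (9.00 to 4.18 kb) were not. In the neural list 1 of 4 was kept, Pou3f2 (5.54 to 5.59 kb), and Emx2 (11.9 to 2.37 kb), Dlx2 (10.5 to 1.53 kb) and Pou3f3 (6.41 to 3.23 kb) were not. The single epithelial domain, Grhl3, measured 5.31 kb and had no iPSC peak.

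Only 10 domains overlapped a peak of 5 kb or more in all 6 later libraries, and 160 did so in the 5 other than D16S+ (11.3%). D16S+ held 17 such peaks in all. The matching shares of all D0 peaks were not counted. They cannot exceed 0.0414% and 1.08%, the shares of all D0 peaks for D16S+ and D12S+ alone. The widest of the 10 was that of Malat1. Brd2, a bromodomain protein that binds acetylated histones, measured 12.0 kb in D0, 12.3 kb in D3 and in D6T-, 11.4 kb in D9T-, 10.9 kb in D12S+, 5.67 kb in D16S+ and 12.2 kb in iPSCs. Its width hardly moved outside of D16S+. Mll5 with 5031425E22Rik, the co-repressor Tgif1, Hnrnpa2b1 with the heterochromatin protein gene Cbx3, and Sall1 came next, and Tgif1 kept 7.56 kb in D16S+. A further 409 domains (29.0%) were broad in no later library, a share not counted over all D0 peaks.

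At the other extreme stood the 37 domains with no iPSC peak, of which 24 held a gene start. The widest of 3 domains with a Sept9 start, a septin of the cytoskeleton, measured 10.5 kb in D0, 2.59 kb in D3, 2.92 kb in D6T-, 2.61 kb in D9T-, 0.766 kb in D12S+, 0.500 kb in D16S+ and 0 in iPSCs. The other 2 kept iPSC peaks of 2.63 and 3.87 kb, and a domain of 5.28 kb over the Sept9 body, at chr11:117132822-117138105, had none. Fgf7, a growth factor made by mesenchyme for epithelium (9.18 kb), and the RNA-binding Rbms3 (8.39 kb) had no peak from D12S+ on, and nor did Col6a3 (8.08 kb), a chain of type VI collagen, which was at 0.500 kb in D3. Pear1 (7.93 kb) had no peak in D16S+ or iPSCs, and the membrane protein gene Emp1 (7.89 kb) none in iPSCs, with Emp1 at 8.79 kb in D6T- and 3.55 kb in D12S+. Dnm3os, with miR-199a and miR-214, measured 4.73 kb in D3, 5.88 kb in D6T-, 5.64 kb in D9T- and 1.06 kb in D12S+ and had no peak in D16S+ or iPSCs.

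**Figure D3:**
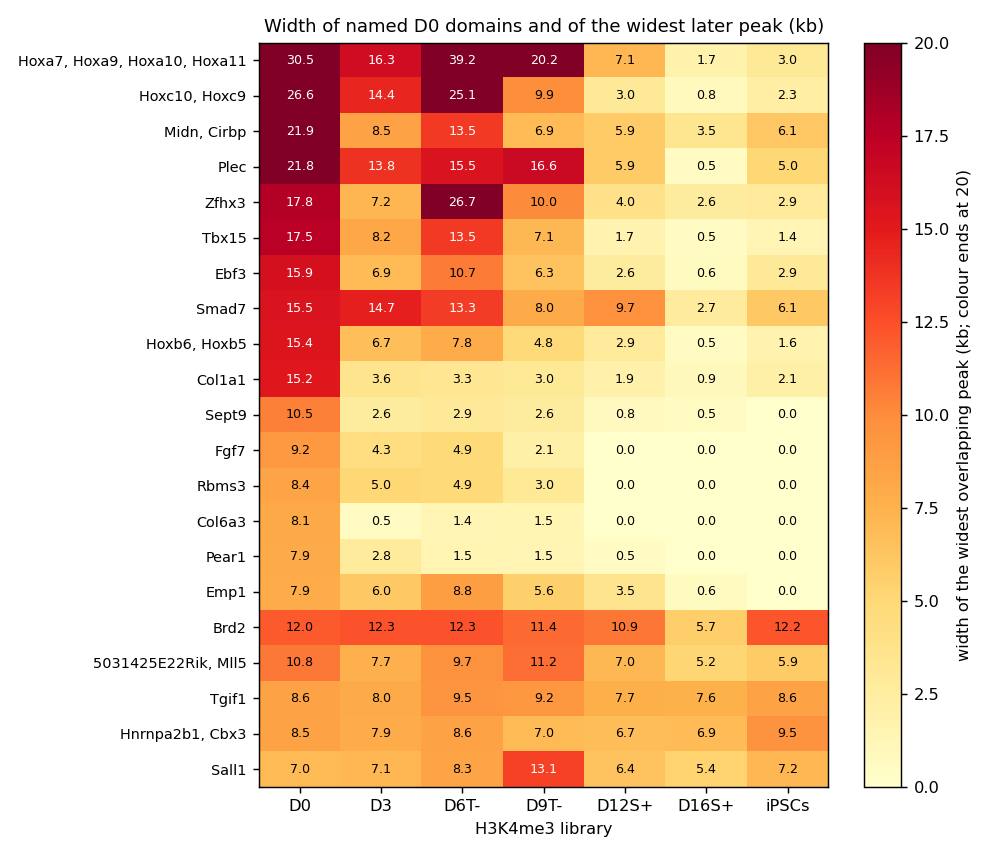
Width in kb (colour, which ends at 20 kb, and printed values) of 21 named D0 domains and of the widest H3K4me3 peak that overlapped each in 6 later libraries, with 0.0 for no peak. The upper 10 are the widest domains with a gene, the middle 6 the widest with a gene and no iPSC peak, and the lower 5 the widest with a gene that stayed at 5 kb or more in every library; Col1a1 was at 3.65 kb in D3 and Brd2 at 12.2 kb in iPSCs.

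H3.3 covered more of the broad domains than of shorter peaks in D0. At least 50% of the length lay under H3.3 peaks in 731 domains (51.8%, 49.2 to 54.4), in 28.9% of the comparison peaks and in 39.1% of all D0 peaks. Measured over the central 2 kb of each region, a choice made after the values were seen, the shares were 49.5% of the domains and 30.1% of the comparison peaks. The separate MEF library, of day 0 fibroblasts from the transdifferentiation experiment and with 7.64% of tags in peaks against 19.1% in D0, had 444 covered domains (31.4%; 22.7% of all D0 peaks), and 395 domains were covered in both (28.0%; 17.8% of all D0 peaks). In D0, H3.3 covered 53.1% of the length upstream of the start, 44.8% of the first 2 kb and 56.8% of the part beyond.

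Domains of similar width differed widely in H3.3. In D0, 17 of 19 matrix and collagen domains (89.5%) and 21 of 24 contractile and actin domains (87.5%) were covered. So were 17 of 21 AP-1 and immediate early and 17 of 21 housekeeping domains (81.0% each). The count was 6 of 39 fibroblast transcription factor domains (15.4%), 2 of 14 Hox domains (14.3%), 0 of 7 pluripotency and 0 of 4 neural domains. The share over the 1300 gene domains was 51.1%. The MEF library, which D0 did not use, gave 12 of 19 matrix domains and 5 of 39 transcription factor domains, beside 30.5% of the gene domains. Col1a1 was covered over 100% of its 15.2 kb, Plec over 94.8% and Midn with Cirbp over 87.8%, while the Hoxa domain was covered over 12.0%, Hoxc10 with Hoxc9 over 14.3%, Tbx15 over 14.0% and Ebf3 over 0%. Both kinds were thus among the 12 widest.

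**Figure D4:**
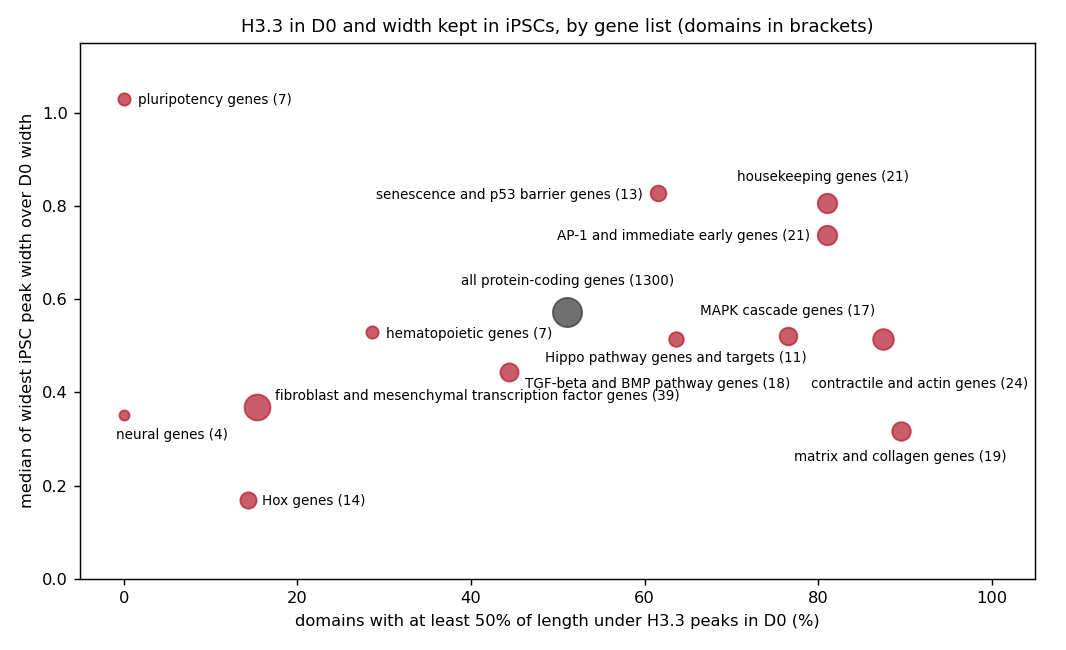
For each gene list, the share of its domains with at least 50% of the length under D0 H3.3 peaks (x axis, %) and the median of iPSC peak width over D0 width (y axis, ratio); the area of a point grows with the number of domains, in brackets, up to 50, and lists with fewer than 4 are left out. Matrix and collagen domains had 89.5% and 0.318, Hox domains 14.3% and 0.169, housekeeping domains 81.0% and 0.806.

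Base composition differed with H3.3 and with the outcome in iPSCs. Observed over expected CpG, a ratio that is low where CpG has been lost from the genome, had a median of 0.492 over the domains and 0.550 over the comparison peaks. It was 0.435 in domains covered by H3.3 in D0 and 0.558 in the others, and 0.532 in domains kept broad in iPSCs, 0.483 in those narrowed and 0.240 in those with no iPSC peak. TGANTCA occurred in the central 2 kb of 36.2% of domains, 34.6% of comparison peaks and 49.9% of all D0 peaks, and in 42.4% of domains covered by H3.3 against 29.5% of the others. The 2 domains on unplaced sequence were left out of these values. They are descriptions and say nothing of binding.

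Along the way to iPSCs, D3 had 25.7% of the domains covered, D6T- 47.9%, D9T- 43.1%, D12S+ 20.1%, D16S+ 8.43% and iPSCs 38.0%, and ESD3 had 8.29%. In this order all D0 peaks gave 16.6%, 24.2%, 22.3%, 10.3%, 4.94%, 22.7% and 7.97%, and the comparison peaks 13.4%, 25.4%, 24.7%, 10.7%, 4.63%, 35.9% and 5.77%. The distance between domains and comparison peaks was 22.9 percentage points in D0, 22.5 in D6T- and 2.08 in iPSCs (interval -0.580 to 4.80), so in iPSCs the fibroblast domains did not stand apart from shorter fibroblast peaks beyond counting error. In these 12 reprogramming libraries 46 domains were covered throughout (3.26%; 0.624% of all D0 peaks), and 344 in none (24.4%; 37.2%). Of the domains covered in D0, 380 were also covered in iPSCs (26.9% of the domains; 11.3% of all D0 peaks) and 351 were not (24.9%; 27.8%). When H3.3 peaks under 4-fold were dropped the iPSC share was 1.84%, so it rests on weak H3.3 peaks.

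Successful and unsuccessful fractions differed in opposite directions early and late. On day 6, 47.9% of the domains were covered in D6T- and 28.7% in D6T+, and on day 9, 43.1% in D9T- and 36.8% in D9T+, differences of 19.2 and 6.37 points. On day 12, 20.1% were covered in D12S+ and 62.1% in D12S-, and on day 16, 8.43% in D16S+ and 38.1% in D16S-, differences of -42.0 and -29.7 points. All D0 peaks shifted the same way, by 5.63, 2.38, -23.4 and -15.5 points, with 18.6%, 19.9%, 33.7% and 20.4% covered in D6T+, D9T+, D12S- and D16S- (12.2%, 17.0%, 38.7% and 21.0% of the comparison peaks). The share of H3.3 tags in peaks also moved this way: 19.3% and 10.9% on day 6, 14.8% and 12.1% on day 9, 6.93% and 22.0% on day 12, 4.88% and 12.2% on day 16, the successful fraction first. Their part in the result was not tested. With the 34062 highest-scoring peaks of each library the differences were 16.8, 5.52, -37.2 and -27.3 points. In all, 255 domains were covered in D12S- and D16S- and not in D12S+ and D16S+ (18.1%; 9.38% of all D0 peaks), and 0 of 1412 showed the reverse, which allows a share of up to 0.212% (0.107% of all D0 peaks).

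**Figure D5:**
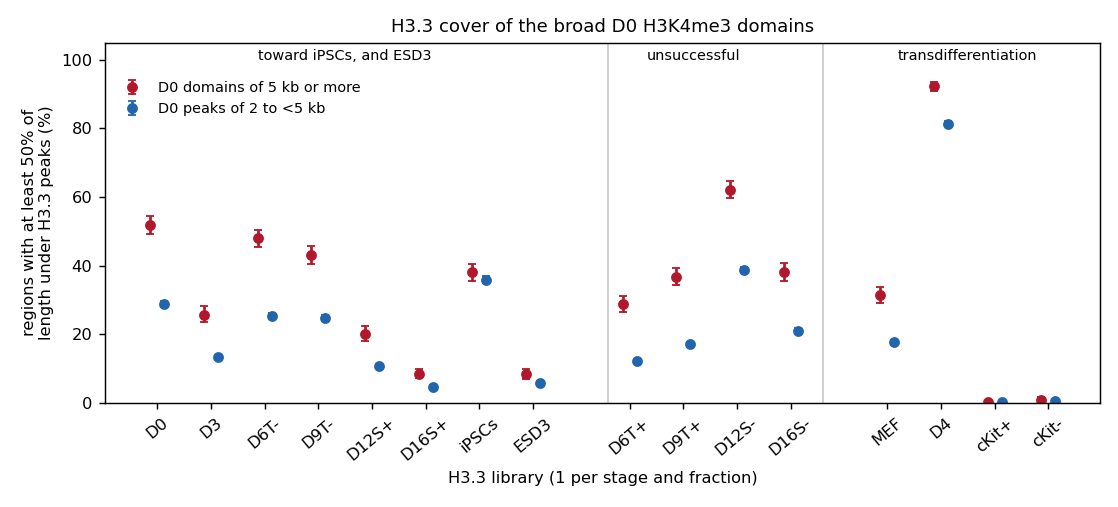
Share of regions with at least 50% of their length under H3.3 peaks (y axis, %) in each of 16 H3.3 libraries (x axis), for the 1412 D0 domains and the 10498 D0 peaks of 2 to under 5 kb; bars are 95% Wilson intervals, which cover counting error only. The domains stood at 62.1% in D12S- and 20.1% in D12S+, at 92.4% in D4, and at 38.0% in iPSCs beside 35.9% of the shorter peaks.

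Single domains showed the late contrast at full range. Emp1 was covered over 84.0% in D0, 100% in D6T-, D9T-, D6T+, D9T+, D12S- and D16S-, 61.0% in D12S+, 0% in D16S+ and 6.34% in iPSCs. Ssh1, a cofilin phosphatase, had 96.0% in D16S- and 0% in D16S+, the calcium-binding S100a6 93.2% and 0%, the secreted Angptl4 100% and 6.86%, and Vgll4, a partner of TEAD factors, 92.6% and 0%. Ssh1 had 58.1% in iPSCs, whereas S100a6 had 0% and Vgll4 23.7%. The largest differences in the other direction were smaller: 34.3% in D16S+ and 0% in D16S- at Morf4l2 with BC065397, 40.5% and 6.83% at Smad6, an inhibitor of BMP signalling, 31.3% and 0% at Cyp1b1, 31.3% and 0% at Zic2, and 72.8% and 45.0% at Trim28, a co-repressor that silences retroviruses. Zic2 and Morf4l2 had 0% in D0.

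Domains were also divided by their H3K4me3 in iPSCs, and H3.3 in D0 did not follow the order of these groups. Of the 380 domains kept broad, 59.5% were covered by H3.3 in D0, 38.4% in D12S+, 21.1% in D16S+ and 61.8% in iPSCs. Of the 995 narrowed ones, 48.1%, 13.5%, 3.92% and 30.3% were covered, and of the 37 without an iPSC peak 70.3%, 10.8%, 0% and 2.70%. The domains that lost the mark were thus mostly covered in D0. Among the lists, matrix domains had 17 of 19 covered in D0, 9 in D6T-, 1 in D12S+, 0 in D16S+ and 3 in iPSCs, and housekeeping domains 17 of 21 in D0, 19 in D6T-, 16 in D12S+, 16 in D16S+ and 19 in iPSCs. Senescence and p53 domains were covered in 13 (D12S-), 3 (D12S+), 9 (D16S-) and 1 (D16S+) of 13. In the same order, AP-1 and immediate early domains were covered in 19, 11, 18 and 6 of 21. All gene domains gave 61.8%, 19.5%, 37.6% and 8.46%.

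On the way to blood, 31.4% of the domains were covered in MEF, 92.4% in D4 (90.8 to 93.6), 0.212% in cKit+ and 0.921% in cKit-. All D0 peaks gave 22.7%, 68.1%, 1.53% and 1.83%, and the comparison peaks 17.6%, 81.4%, 0.152% and 0.514%. D4 had the most tags in peaks of all H3.3 libraries and the cKit libraries the fewest, 1.65% and 2.31%. Cover in D4 took in domains that had little H3.3 in fibroblasts: the Hoxa domain was covered over 19.0% in MEF and 72.8% in D4, Hoxb6 with Hoxb5 over 9.73% and 93.0%, and Tbx15 over 4.03% and 61.5%, while Fgf7 had 0% and 25.9%. In D4, 11 of 14 Hox, 29 of 39 fibroblast transcription factor, 4 of 7 pluripotency and 6 of 7 hematopoietic domains were covered. Each of these shares was below the 92.6% of all gene domains. With equal numbers of peaks, 25637 per library, D4 exceeded MEF by 57.8 points, against 60.9 points with all peaks, and with any H3.3 peak in the domain in place of 50% of its length by 9.84 points. In cKit-, Malat1 and Neat1 were covered over 81.2% and 80.1% of their length, and in cKit+ over 3.91% and 16.0%.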

How the data were processed

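The study provided 46 samples, of which 30 had peak lists and 16 were inputs. Reads were mapped with STAR to mm9, reads with more than 1 locus dropped, and peaks called with HOMER per library against input, as stated in the study's methods (versions not given in the sources used here). Per the file headers, peaks were regions of merged 500 bp windows up to 1000 bp apart, with a Poisson p-value of 0.0001 over input and a fold over input (a ratio) of at least 4 for H3K4me3 and H3K36me3 and 2 for H3.3. The deposited normalized tag count is a signal scaled to 10 M tags; width and fold were used as deposited.

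From these lists, a later peak overlapped a domain at 1 bp, and H3.3 cover was the share of a domain under merged peaks, called at 50%. Each group held 1 library, so no test was run. Interval code (Python 3.11.15, numpy 2.4.6) was checked on simulated data. Domains were named by GENCODE vM1 protein-coding starts. Older symbols were matched through RefSeq; 2 hematopoietic and 1 neural gene found no match. Domains and gene lists were chosen with earlier results of these data known. Named genes were the 12 widest domains, up to 4 per list, the 6 widest without and the 6 widest broad in every later library, the 5 largest H3.3 differences each way and the 5 at each side of the limit; others were named after their values were seen. Promoter windows that held an annotated exon were not printed, while the windows counted across genes were not filtered for exons. A gene that the naming rule covers is not reported here.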

Additional observations from a re-analysis of the deposited data

Results flagged for a closer look

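The difference in H3.3 cover between successful and unsuccessful fractions had opposite signs early and late. The share of domains covered was higher in the successful fraction by 19.2 points on day 6 and 6.37 points on day 9, and changed sign to -42.0 points on day 12 and -29.7 points on day 16. Each value compares 1 library with 1 library, and the difference between days was not tested. The sort marker also changed, from Thy-1 on days 6 and 9 to SSEA-1 on days 12 and 16, so day and marker cannot be told apart.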

How the results depend on the processing

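Of 36 alternatives over 7 results, 17 stayed within the counting interval and 19 moved; 5 of the results are shares, which have no sign to change. With a width limit of 8 kb (231 domains), 39.4% were kept broad in iPSCs, H3.3 covered 63.6% in D0 and 35.1% in iPSCs, and D4 minus MEF was 48.9 points. Equal numbers of top-scoring peaks (19633 for H3K4me3) gave 5.17% without an iPSC peak, H3.3 cover of 45.3% in D0 and 33.4% in iPSCs, and 57.8 points for D4 minus MEF. A fold over input of 8 gave 14.0% kept broad and 51.6% without a peak. A fold of 4 for H3.3 gave 36.8% in D0, 1.84% in iPSCs, -13.2 points for successful minus unsuccessful (mean of 4 days, -11.5 as reported) and 37.3 points for D4 minus MEF. Any H3.3 peak in the domain gave 93.1%, 83.6%, -7.15 and 9.84 points. The widest iPSC peaks overlapped 40.1%. The share with a gene start moved under none of its 3 alternatives. The cause of these moves was not tested. No paired analysis was possible because each group had 1 library and so no replicates to pair or to leave out; fractions of the same day were set side by side. Depth was lowest in D16S+ for each mark, while cKit+ and cKit- had 91.8 and 51.6 M tags and few of them in peaks (1.65% and 2.31%).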
